A study of Oncorhynchus mykiss with 9 samples.

Results

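Moderate hypoxia of 12 h was set against normoxia in head kidney from rainbow trout, Oncorhynchus mykiss, over every gene row of the deposited expression table that averaged 10 or more counts per library in either group. These were 28415 of 44219 rows, and the other 15804 rows lay below that minimum in both groups. The moderate hypoxia group held 3 libraries from fish kept at 4.5 mg/L dissolved oxygen and sampled at 12 h. The normoxia group held 3 libraries from fish at 8.5 mg/L, labelled 0 h. A severe hypoxia group of 3 libraries, at 3.0 mg/L for 12 h, is cited beside some values. All were full siblings of about 130 g kept at 12 °C, and their age is not given in the labels. RNA came from whole tissue. Sampling time differed between moderate hypoxia and normoxia along with oxygen, and the labels record that time under the tag batch, so the effects of oxygen, of time and of any batch it marks cannot be told apart.

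In bony fishes most blood cells form in the head kidney, which is also a site of antibody and phagocyte production. It also houses interrenal cells, which make cortisol, and chromaffin cells, which make catecholamines. In vertebrates, low oxygen slows the prolyl hydroxylases that mark the alpha subunits of the transcription factor HIF for destruction, and HIF then raises genes of glycolysis, oxygen delivery and mitophagy. Stress also raises cortisol, which acts through the glucocorticoid receptor.

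The table gives 1 mean count and 1 FPKM value (fragments relative to gene length and sequencing depth) per gene and group. The spread between fish is therefore unknown, the differences below lack any check by replicates, and p-values are not given. Mean library totals were 15301518 counts in moderate hypoxia and 15246482 in normoxia. Interrenal, chromaffin, erythroid, neutrophil and B cell markers were detected in both groups. Each count named is a group's deposited mean, summed over all rows that carry the same gene symbol unless a row is named, because a salmonid genome holds many near-identical copies whose reads can be divided between rows. Log2 ratios are moderate hypoxia over normoxia after scaling with trimmed means of log ratios (TMM), which divided moderate counts by 1.62. That scaling put the median row at a log2 ratio of 0.01; on library totals every ratio is 0.69 higher. Intervals are exact 95% intervals of the counts and cover counting error only. Severe hypoxia is compared with the same normoxia libraries, so the ratios of both hypoxia groups share their denominator. In whole tissue, fewer cells of a type and less RNA per cell cannot be told apart.

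Of the 28415 rows, 5682 were at least 2-fold higher in moderate hypoxia (20.0%) and 3971 were at least 2-fold lower (14.0%). Summed by symbol, 13390 genes reached the minimum, of which 2104 were at least 2-fold higher (15.7%) and 1486 at least 2-fold lower (11.1%). Higher genes thus made up 58.9% of the called rows and 58.6% of the called symbols. On library totals the same split was 10834 rows higher and 1307 lower, or 89.2% higher, and 92.5% of the called symbols were higher. Rows just inside the minimum, at 10 to under 11 counts, numbered 363 and had a median log2 ratio of 0.35, with 36.6% higher and 23.1% lower. Just outside it, at 9 to under 10 counts, 380 rows had a median of 0.25, with 34.5% higher and 20.5% lower. The plot of ratio against abundance shows that the spread of ratios widened toward low counts. Over 10 equal classes of rows by abundance, the median fell steadily from 0.89 in the least abundant to -0.37 in the most abundant. In those 2 classes 47.4% and 4.29% of rows were at least 2-fold higher, and 15.3% and 21.9% lower. The minimum was applied to counts before scaling, so a row could pass in moderate hypoxia at fewer scaled counts than in normoxia. In the least abundant class, which starts at 3.08 scaled counts, the median and both shares partly reflect that minimum. The same holds for the rows just inside and just outside it. The shares of all symbols or rows cited below are not adjusted for abundance.

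**Figure D1:**
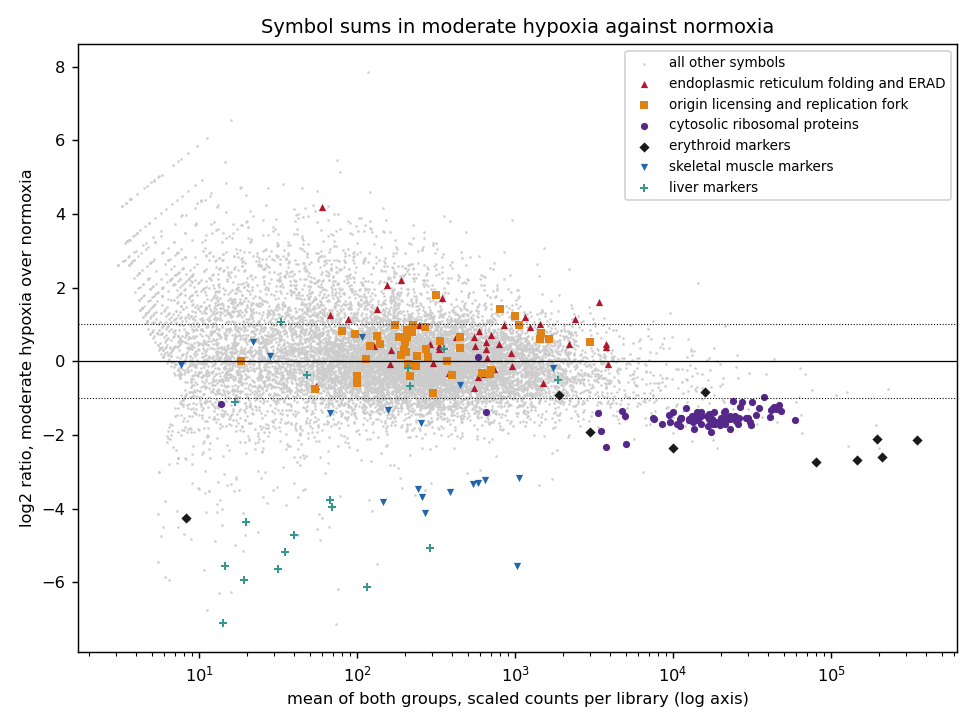
Each point is 1 gene symbol: the x axis is the mean of both groups in scaled counts per library (log axis), the y axis the log2 ratio of moderate hypoxia over normoxia, and dotted lines mark 2-fold. Ribosomal protein and globin transcripts lie below 0 at the abundant end, muscle and liver markers lie lowest, and most of the genes for endoplasmic reticulum folding and the replication fork lie above 0.

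Ratios followed gene length. Length could be derived from the deposited count and FPKM of 28351 rows. With rows divided into 10 equal classes by length, the shortest class, of 129 to 1184 bases, is described first. There, the median log2 ratio was -0.92, with 46.8% of rows at least 2-fold lower and 13.6% higher. The longest class, of 5926 to 29150 bases, had a median of 0.56, with 3.10% lower and 29.0% higher. In severe hypoxia the medians of the same classes were -0.34 and 0.11. For many gene lists below, the median is also given after the median ratio of symbols of like length was subtracted, called length-adjusted. For sets of rows, such as pathway classes and assembled loci, the median ratio of rows of like length was subtracted. What produced the trend was not tested.

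**Figure D2:**
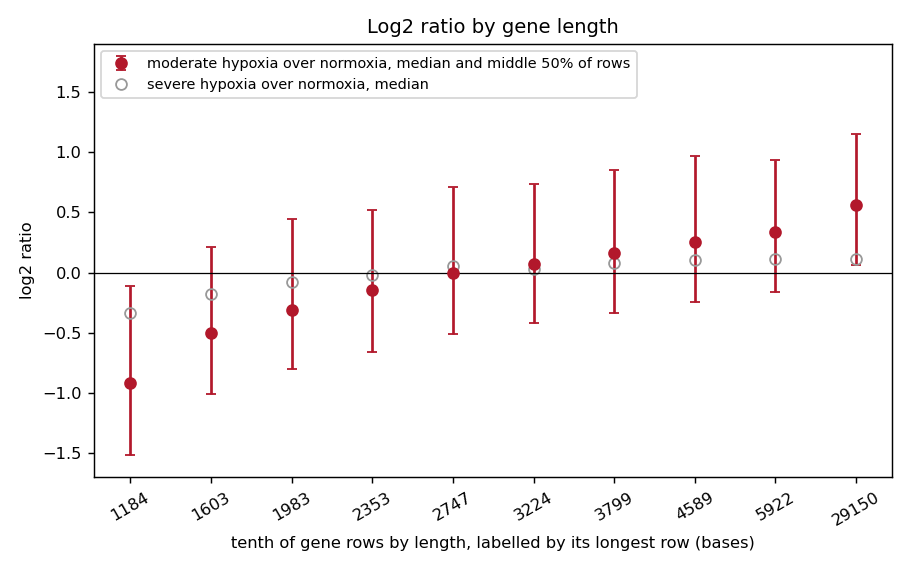
Gene rows are divided into 10 equal classes by length (x axis, labelled by the longest row of each, in bases), and the y axis is the log2 ratio. Filled points and bars give the median and the middle 50% of rows for moderate hypoxia over normoxia, and open points the medians for severe hypoxia over normoxia. The moderate medians climb from -0.92 in the shortest class to 0.56 in the longest, a wider range than in severe hypoxia.

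The composition of the libraries differed. Globin transcripts, which red blood cells make, took 4.12% of counts in moderate hypoxia and 13.0% in normoxia, with 7.37% in severe hypoxia. The 13 transcripts of the mitochondrial genome took 2.36% in moderate hypoxia and 5.14% in normoxia. Cytosolic ribosomal proteins took 8.99% in moderate hypoxia and 15.5% in normoxia. The Wilson 95% interval of the ribosomal protein share in normoxia, the widest of these, was 15.45 to 15.47%, and that of the globin share in moderate hypoxia was 4.11 to 4.12%. The 100 most abundant rows held 23.0% of counts in moderate hypoxia and 38.3% in normoxia, and the 1000 most abundant held 50.1% in moderate hypoxia and 67.2% in normoxia. The largest losses of share belonged to the globin symbols hba4, at 1.37% in moderate hypoxia and 3.77% in normoxia, and hbb1, at 0.635% and 2.36% in the same order. COX2, a mitochondrially encoded subunit of cytochrome c oxidase, stood at 0.461% in moderate hypoxia and 1.40% in normoxia. The largest gains were those of mmp9, a neutrophil gelatinase, at 0.248% in moderate hypoxia and 0.0350% in normoxia, and of TKT, the pentose phosphate enzyme transketolase, at 0.299% and 0.0946% in the same order.

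Of the 10 erythroid markers at or above the minimum, 6 were globins, so the list repeats the globin values in part. Of all 10, 8 were at least 2-fold lower, above the 11.1% of all symbols, and 0 lay above 0. The markers had a median log2 ratio of -2.25 (-1.21 length-adjusted, -1.56 on library totals). Their summed counts, nearly all from globins, were 551409 in moderate hypoxia and 1689300 in normoxia, and none was at 0 in either group. Of the 4 markers other than globins, alas2 and hemgn were at least 2-fold lower and slc4a1 and rhag were not. The haem-forming enzyme alas2 was at 5294 counts in moderate hypoxia and 16755 in normoxia (log2 ratio -2.36, interval -2.39 to -2.33), and hemgn, which encodes the blood cell nuclear protein hemogen, at 2038 and 4732 (-1.91). The anion exchanger slc4a1, also called band 3, differed less, at 18534 and 20511 counts in the same order (-0.84, and -0.15 on library totals), and so did the ammonia channel rhag (-0.92). In severe hypoxia alas2 stood at 11658 counts and the markers' median was -1.02.

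Among 32 regulators and membrane proteins of red cells, 11 were lower by 2-fold or beyond and 4 higher, and the median was -0.72 (-0.89 length-adjusted and -0.03 on library totals). The 2-fold lower share lies above the 11.1% of all symbols. Lower members included DMTN, which encodes the spectrin-binding protein dematin, at 961 counts in moderate hypoxia and 2434 in normoxia (-2.04), and the red cell carbonic anhydrase cahz, at 8105 and 17628 (-1.82). The blood-forming transcription factor tal1 was at 1264 and 2311 counts (-1.57), its partner lmo2 at 1007 and 1775 (-1.52), and the erythropoietin receptor epor at 2586 and 4441 (-1.48), moderate hypoxia first in each. The members above 2-fold were KLF3, a transcriptional repressor, with 286 counts in moderate hypoxia and 52.3 in normoxia (1.75), the LIM-domain cofactor ldb1a (1.14), and epb41a and Tmod1 of the membrane skeleton, at 48.4 and 9.00 counts and at 51.7 and 5.33 counts, moderate hypoxia first in each.

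Haem synthesis and iron genes were mixed. Of 28 symbols, 3 were higher by at least 2-fold, below the 15.7% of all symbols, and 6 lower, above the 11.1% (median -0.44, -0.62 length-adjusted, 0.25 on library totals). The 3 higher genes take up iron. The transferrin receptor TFRC had 675 counts in moderate hypoxia and 189 in normoxia (1.14), its paralogue tfr1b had 5309 and 1574 (1.06), and the divalent metal transporter slc11a2 had 290 and 80.3 (1.15). Among the lower genes, the ferritin heavy chain symbol fth1-a was at 7818 counts in moderate hypoxia and 21682 in normoxia over its 13 rows (-2.17), haem oxygenase hmox1a at 1024 and 1870 (-1.57), and biliverdin reductase BLVRB at 3671 and 6663 (-1.56). The mitochondrial iron importer slc25a37 was at 1471 and 1911 counts (-1.08).

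HIF target genes did not move as a block. Of 53, 8 were higher by at least 2-fold and 6 lower, and 32 lay above 0, with a median of 0.21 (0.22 length-adjusted); in severe hypoxia the median of the same symbols was 0.33. Both 2-fold shares are close to those of all symbols. The largest ratio was that of ero1a, the oxidase that forms disulphide bonds in the endoplasmic reticulum, with 186 counts in moderate hypoxia and 6.33 in normoxia (18.1-fold higher, interval 11.5 to 30.3); severe hypoxia had 134. The lactate exporter SLC16A3 had 852 counts in moderate hypoxia and 103 in normoxia (2.35). The collagen lysyl hydroxylase PLOD2 had 135 and 18.3 counts in the same order (2.18), and the hexokinase HK2 had 2717 and 737 (1.18). Epas1, which encodes HIF-2 alpha, was at 423 counts in moderate hypoxia and 66.3 in normoxia (1.98), although its 3 rows were not alike: an EPAS1 row was at 13.3 counts in moderate hypoxia and 23.7 in normoxia.

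Other HIF targets were lower. Lactate dehydrogenase ldha had 52.7 counts in moderate hypoxia and 353 in normoxia (-3.44), and both of its rows were lower. That ratio lies near the median of the skeletal muscle markers described below (-3.18), and whether the ldha counts came from muscle was not tested. The mitophagy receptor bnip3 was at 2129.7 counts in moderate hypoxia and 3669.7 in normoxia (-1.48), and at 5034 in severe hypoxia; its paralogue BNIP3L was at 2012 and 2657 (-1.10). The glycolytic enzyme ENO1 was at 1919.9 and 3985 counts (-1.75). The prolyl hydroxylase Egln3 had 274 counts in moderate hypoxia and 71.7 in normoxia (1.24, interval 1.02 to 1.46), and 766 in severe hypoxia (3.14). hif1a itself was at 3574 and 1630.3 counts (0.43), with 1 of its 4 rows at -0.20 and the others between 0.02 and 1.12. VEGFA, the vascular growth factor, was at 126 counts in moderate hypoxia and 114 in normoxia (-0.55, 0.14 on library totals). For the hormone epo, 6.33 and 1.33 counts gave a ratio whose interval, -0.04 to 3.57, includes 0.

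**Figure D3:**
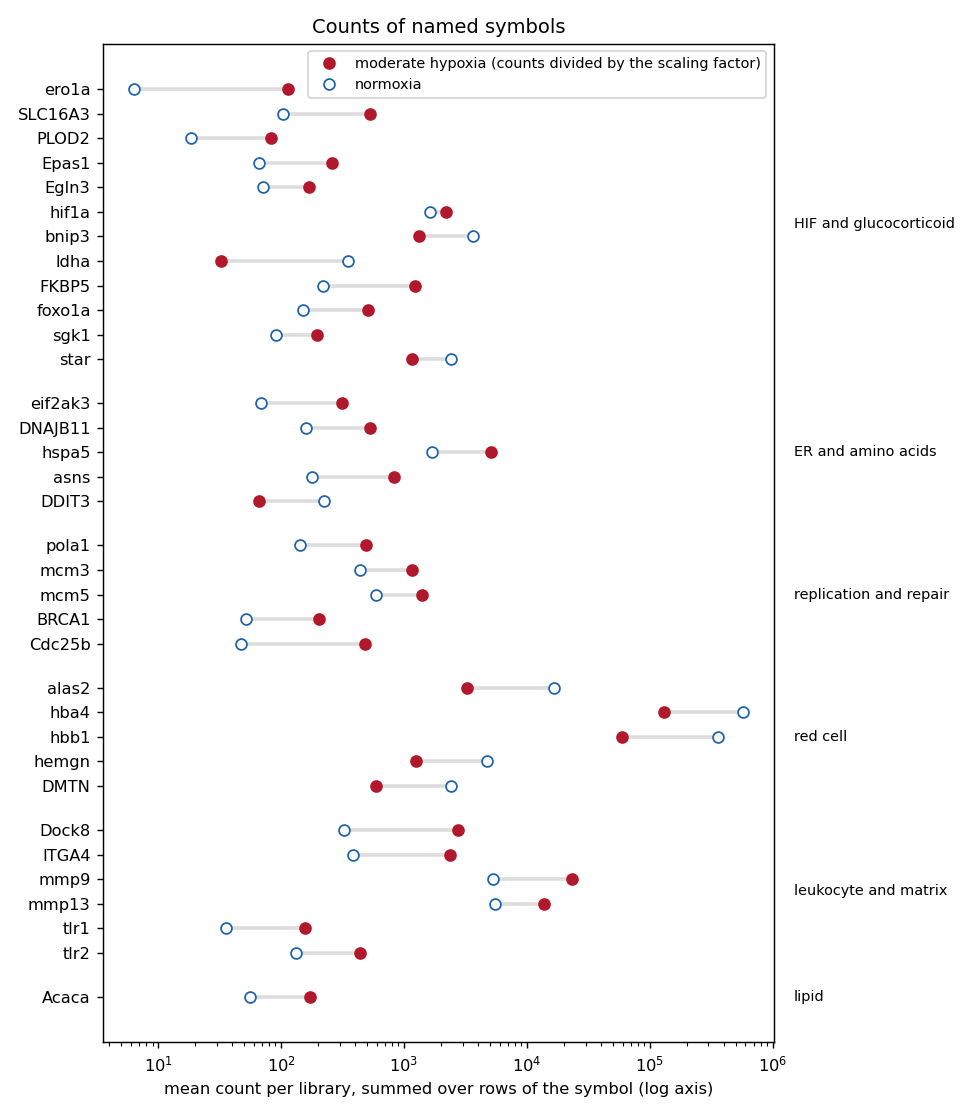
Mean counts per library (x axis, log axis) of named genes summed over rows of the symbol (y axis, in groups named on the right). Filled points are moderate hypoxia after division by the scaling factor and open points are normoxia. In moderate hypoxia, the genes shown for replication and repair and for leukocytes and matrix lie to the right. So do those for the endoplasmic reticulum and amino acids other than DDIT3. The genes shown are a selection: other leukocyte markers, such as MPO and spi1a, were lower on scaled counts. To the left lie ldha, bnip3, star, DDIT3 and the red cell genes.

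The most abundant of the 2-fold higher glucocorticoid-induced genes was FKBP5, a co-chaperone of the glucocorticoid receptor. It had 2007 counts in moderate hypoxia and 219 in normoxia (5.64-fold higher, interval 5.21 to 6.12), with 1559 in severe hypoxia, and its rows stood at log2 ratios of 3.07 and 1.71. In the list of 30 symbols, 6 were higher by at least 2-fold, slightly above the share of all symbols, and 0 lower. The list's median was 0.05 (-0.00 length-adjusted), and 16 lay above 0. The transcription factor foxo1a had 834 and 149.7 counts, moderate hypoxia first (1.78), the kinase sgk1 317 and 91.0 (1.10), and pdk4, which inhibits pyruvate dehydrogenase, 69.0 and 7.00 (2.60). Most sgk1 counts of moderate hypoxia came from 1 of its 5 rows, at 222 counts in moderate hypoxia and 18.0 in normoxia, while another row was at 85.7 and 70.3.

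Markers of the cells that make cortisol were mixed. Of 9 interrenal markers, 3 were lower by at least 2-fold, above the share of all symbols, and 1 higher, below the share for higher. Their median was -0.64 on scaled counts and 0.05 on library totals. The cholesterol carrier star, which starts steroid synthesis, was at 1875 counts in moderate hypoxia and 2405 in normoxia (-1.06, -0.36 on library totals), and at 4536 in severe hypoxia (0.64). The corticotropin receptor mc2r was at 30.2 and 61.8 counts (-1.73), and the steroid dehydrogenase hsd3b1 at 1066 and 1511 (-1.20), in the same order. cyp17a1 lay at 0.01. The 1 higher marker, the regulator nr5a1a, had 19.7 counts in moderate hypoxia and 3.00 in normoxia. Of the 5 chromaffin markers above the minimum, the adrenaline-forming enzyme Pnmt was at 66.3 and 107 counts (-1.39), and tyrosine hydroxylase th at 99.3 and 36.7 (0.74). The chromaffin median was -0.25, and 0.45 on library totals.

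Protein folding in the endoplasmic reticulum was higher. Of 44 genes for folding and degradation there, 11 were higher by at least 2-fold and 0 lower, above the 15.7% of all symbols, and 32 lay above 0 (median 0.46, 0.36 length-adjusted). The chaperone BiP, encoded by hspa5, had 8350 counts in moderate hypoxia and 1680.3 in normoxia (3.06-fold higher), with both rows alike at 1.61 and 1.63. Its cofactor DNAJB11 had 854 and 159 counts (1.72). The stress sensor PERK, encoded by eif2ak3, had 506 counts in moderate hypoxia and 68.3 in normoxia (2.19). Disulphide isomerases followed, with P4hb at 5332 and 1489.7 (1.14) and PDIA4 at 2617 and 698 (1.21). Genes of the same list below 0 included creld2 (-0.58) and Dnajb9 (-0.44), both above 0 on library totals. In severe hypoxia the list's median was 0.06, and hspa5 stood at 2041 counts.

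Later steps of the secretory route were mixed. In the list of translocation and N-glycosylation (45 symbols, median 0.06), 6 were higher by at least 2-fold and 5 lower, both near the shares of all symbols. The oligosaccharyltransferase subunit stt3b had 2179.7 counts in moderate hypoxia and 494 in normoxia (1.44), whereas ost4, a small subunit of the same enzyme, had 155 and 349 (-1.87, -0.48 length-adjusted). The mannosidase MAN1B1 was at 110.3 and 7.67 counts (3.15). Among 31 COPI and COPII coat genes, which build transport vesicles, 4 were higher by at least 2-fold, below the share of all symbols, and 0 lower (median 0.33). The 4 included sec31b, at 703 counts in moderate hypoxia and 118 in normoxia (1.88).

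The amino acid response was uneven. Asparagine synthetase asns had 1348 counts in moderate hypoxia and 179 in normoxia (4.65-fold higher, interval 4.25 to 5.10), with both rows higher. The serine hydroxymethyltransferase SHMT1 had 585 and 114 counts (1.66), and the mitochondrial folate enzyme mthfd1l 769 and 204 (1.21). Their regulator atf4 was at 12172 counts in moderate hypoxia and 4899.7 in normoxia (0.62). DDIT3, the stress transcription factor CHOP, was lower, at 107 and 224 counts (-1.77), in both of its rows, and nupr1b was at 189 and 324 (-1.47). Over the 28 symbols, 3 were higher by 2-fold or beyond and 3 lower, neither above the shares of all symbols. The median was -0.05, or 0.64 on library totals. Of 32 cytosolic and mitochondrial heat shock genes, 3 were higher and 3 lower, both below the shares of all symbols (median -0.31, 0.38 on library totals). Their regulator hsf1 had 253 counts in moderate hypoxia and 73.0 in normoxia (1.10), and the inducible hsp70b had 85.7 and 199.9 (-1.92).

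Genes of DNA replication lay above 0 as a list while few passed 2-fold. Of 44 genes for origin licensing and the replication fork, 33 were above 0 and 3 at least 2-fold higher, below the 15.7% of all symbols, with 0 lower and a median of 0.45 (0.52 length-adjusted). In severe hypoxia the median of the same genes was -0.66. The catalytic subunit of DNA polymerase alpha, pola1, had 796 counts in moderate hypoxia, 152 in severe hypoxia and 141 in normoxia (moderate 1.80). The helicase subunit mcm3 had 1883 counts in moderate hypoxia, 365 in severe hypoxia and 436 in normoxia (1.41), and mcm5 had 2264, 397 and 593 in the same order (1.23). At the other end of the list, the small origin subunit orc6 was at 348 counts in moderate hypoxia and 389.7 in normoxia (-0.86).

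The 11 enzymes that supply deoxynucleotides had a median of 0.13, and of 0.68 length-adjusted, with a median length of 1215 bases. Ribonucleotide reductase rrm1 had 4500 counts in moderate hypoxia and 1622 in normoxia (0.77), and thymidylate synthase tyms 1477 and 697 (0.39). The dUTPase DUT was at 439 and 558 counts (-1.05, 0.01 length-adjusted). Of 18 purine and pyrimidine synthesis genes, 2 were higher by at least 2-fold and 0 lower, both below the shares of all symbols (median 0.44). The 2 higher genes were cad, which opens pyrimidine synthesis, and PPAT, which opens purine synthesis. The long cad was at 616 counts in moderate hypoxia and 144 in normoxia (1.40, 0.77 length-adjusted). PPAT was at 933 and 218 (1.40, 1.60 length-adjusted).

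Mitotic genes also lay above 0 as a list, with called shares below those of all symbols. The 47 mitotic kinases, cyclins and ubiquitin ligase subunits had a median of 0.37 (0.41 length-adjusted), with 5 at least 2-fold higher and 0 lower; the severe median was -0.43. Cdc25b, the phosphatase that activates cyclin-dependent kinases, had 785 counts in moderate hypoxia and 47.3 in normoxia (10.2-fold higher, interval 8.63 to 12.2). The transcription factor MYBL2 had 260 and 47.3 counts (1.76), and the kinase aurka 761 and 197 (1.25). Kinetochore and spindle genes (43 symbols, median 0.38, 0.23 length-adjusted) had 6 higher, near the share of all symbols, and 2 lower. The long kntc1 was at 395 counts in moderate hypoxia and 93.0 in normoxia (1.39, 0.76 length-adjusted). The short spc25 was at 242 and 328 (-1.14, -0.42 length-adjusted). All 22 condensin and cohesin symbols lay above 0 (median 0.59, 0.29 length-adjusted). The cohesin regulators pds5a, at 2069 counts in moderate hypoxia and 199 in normoxia (2.68), and pds5b, at 1586 and 232 (2.08), had the largest ratios there.

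DNA repair by recombination and the Fanconi pathway had 9 of 28 genes at least 2-fold higher and 0 lower, above the 15.7% of all symbols (median 0.53, 0.31 length-adjusted, and -0.43 in severe hypoxia). BRCA1 had 328 counts in moderate hypoxia and 51.7 in normoxia (3.92-fold higher, interval 3.30 to 4.67). The helicases blm and brip1 had 382 and 100.3 counts (1.23) and 143 and 38.0 counts (1.21), moderate hypoxia first in each. Length-adjusted, blm stood at 0.89, brip1 at 0.87 and BRCA1 at 1.44.

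Chromatin genes were the pathway list with the highest median. Of 56 remodelling and DNA methylation genes, 21 were higher by 2-fold or beyond, above the share of all symbols, and 0 lower, and the median was 0.86. They are also long, with a median length of 7208 bases, and the length-adjusted median was 0.23. The histone demethylase Kdm5c had 1914 counts in moderate hypoxia and 204 in normoxia (2.53, 2.15 length-adjusted). The DNA dioxygenase tet2 had 869 and 93.7 counts (2.52, 1.85 length-adjusted), and both of these enzymes use oxygen. The histone methyltransferase nsd2 had 698 and 104 (2.05), and the Polycomb subunit SUZ12 had 461 and 82.7 (1.78). EZH1, the paralogue of another Polycomb subunit, was at 646 counts in moderate hypoxia and 795 in normoxia (just under 2-fold lower).

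Nuclear transport and splicing genes had called shares near or below those of all symbols. Of 51 nuclear pore and transport genes, 9 were higher by at least 2-fold and 0 lower, near the 15.7% of all symbols (median 0.49, 0.36 length-adjusted). The pore component NUP50 had 373 counts in moderate hypoxia and 32.4 in normoxia (2.83), and the importin ipo4 580.3 and 117 (1.61). Of 61 core spliceosome genes, 6 were higher and 2 lower, both below the shares of all symbols (median 0.14, 0.38 length-adjusted). The 3′ splice site factor u2af2a had 1648 counts in moderate hypoxia and 201 in normoxia (2.34), and the large subunit sf3b1 7012 and 1562 (1.47). The small Sm protein gene snrpg was at 1007 and 1627 counts (-1.39, -0.01 length-adjusted).

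Ribosomal proteins were lower, while factors that build ribosomes were not. Of 58 biogenesis factors, 44 lay above 0, 8 were higher by at least 2-fold, below the 15.7% of all symbols, and 1 lower (median 0.36, 0.50 length-adjusted, -0.32 in severe hypoxia). The ribosome-assembly ATPase MDN1 had 1514 counts in moderate hypoxia and 349.7 in normoxia (1.42, 0.59 length-adjusted). The nucleolar protein NOLC1 had 1075 and 272 (1.28, 0.91 length-adjusted). Of 81 cytosolic ribosomal protein genes, 79 were lower by 2-fold or beyond, above the 11.1% of all symbols, and 0 higher. Their median was -1.54 on scaled counts and -0.85 on library totals. These genes are short, with a median of 671 bases, and the length-adjusted median was -0.31. RPL38 was lowest, at 2053 counts in moderate hypoxia and 6302 in normoxia (-2.32). The exceptions to 2-fold were RPL6, at 40932 and 49494 counts (-0.97), and rpl5a, at 986 and 557 (0.13).

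Translation factors were split. Of 48, 11 were lower by 2-fold or more, above the share of all symbols, and 4 higher, below the share for higher. Their median was -0.39 (-0.11 length-adjusted, 0.31 on library totals). The elongation factor subunit EEF1B2 was at 14190 counts in moderate hypoxia and 30471 in normoxia (-1.80), and the initiation factor subunit EIF3F at 5554 and 9881 (-1.53). The scaffold EIF4G1 was higher, at 3432 and 823 counts (1.36, 0.98 length-adjusted). Aminoacyl-tRNA synthetases (22 symbols, median 0.40) had 1 gene at least 2-fold higher and 0 lower, both below the shares of all symbols. That gene was aars1, which charges alanine tRNA, with 1369 counts in moderate hypoxia and 268 in normoxia (1.65).

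The proteasome list had a median of -0.61 on scaled counts, but 0.15 length-adjusted and 0.08 on library totals. Of 43 members, 6 were at least 2-fold lower, slightly above the 11.1% of all symbols, and 1 higher, below the 15.7%. The lower members included the immunoproteasome subunits psmb9, at 692 counts in moderate hypoxia and 1155 in normoxia (-1.44), and psmb8a, at 1788 and 2429 (-1.14). Their activator Psme1 was also among them, at 2174 and 3608 (-1.43). After length adjustment these remained below 0, at -0.73, -0.83 and -0.97. The nuclear activator psme4b was higher, at 1992 counts in moderate hypoxia and 309.7 in normoxia (1.99).

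The medians of mitochondrial lists lay near 0 after length adjustment. Mitochondrial ribosomal proteins had 13 of 77 genes at least 2-fold lower, above the share of all symbols, and 1 higher (median -0.70, 0.07 length-adjusted). The higher gene was mrps31, at 189 counts in moderate hypoxia and 37.3 in normoxia (1.64). The tricarboxylic acid cycle (31 symbols, median -0.04, 0.66 on library totals) had 1 gene at least 2-fold higher and 0 lower. Fatty acid oxidation (33 symbols, median -0.29, 0.40 on library totals) had 2 higher and 1 lower. For both lists these counts are below the shares of all symbols. ACADSB, which oxidises short branched chains, had 201 counts in moderate hypoxia and 43.0 in normoxia (1.53), and the enoyl-CoA hydratase echs1 621 and 788 (-1.04). In the list of import and membrane fusion, 8 of 34 were lower by at least 2-fold, above the share of all symbols, and 1 higher. Its median was -0.31, but 0.13 length-adjusted and 0.38 on library totals. The inner membrane fusion protein opa1 had 811 counts in moderate hypoxia and 207 in normoxia (1.27, 0.90 length-adjusted). The fission adaptor fis1 had 994 and 1453 (-1.25, -0.91 length-adjusted).

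**Figure D4:**
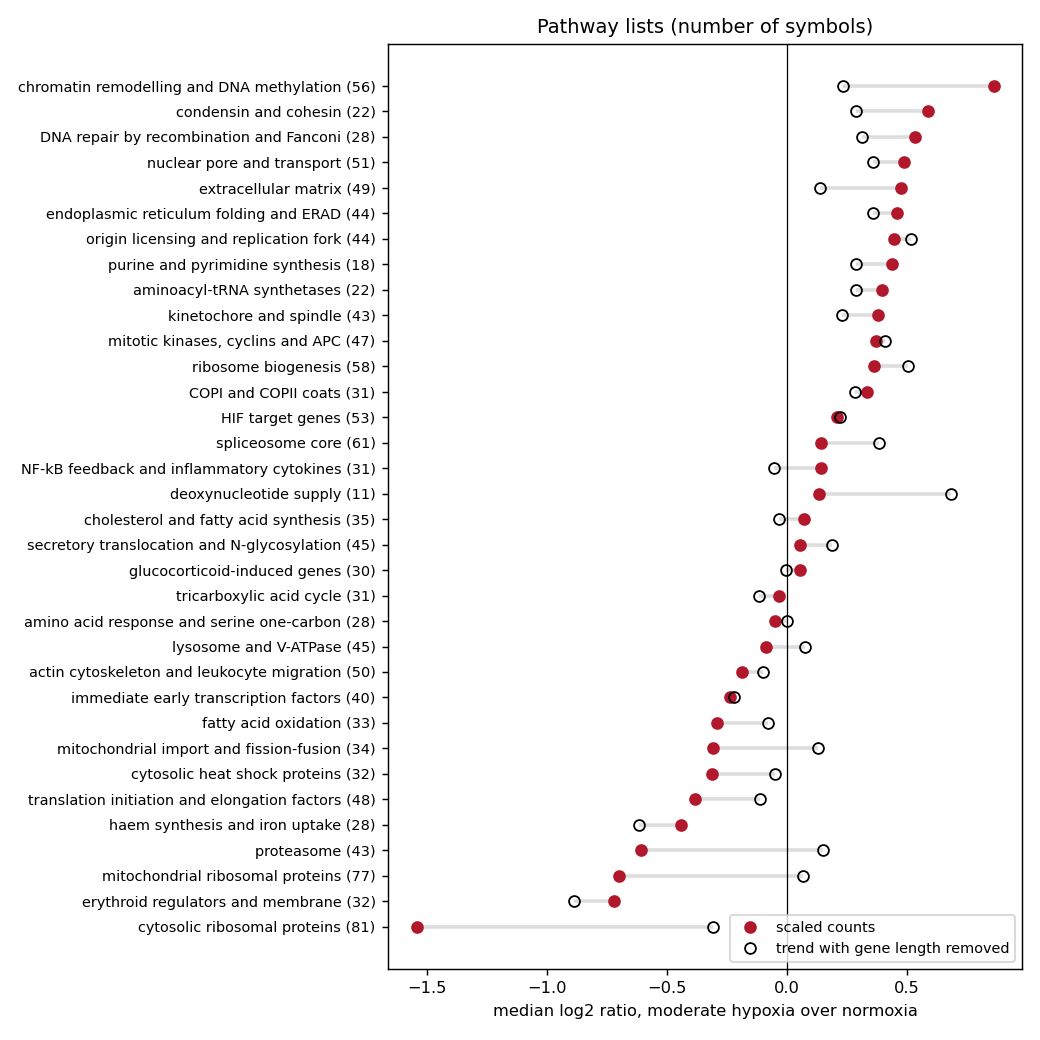
Each line is 1 pathway list (y axis, with its number of symbols), and the x axis is the median log2 ratio of moderate hypoxia over normoxia. Filled points use scaled counts and open points the ratios adjusted for gene length. The median of cytosolic ribosomal proteins moves from -1.54 to -0.31 and that of chromatin genes from 0.86 to 0.23, while those of the replication fork stand at 0.45 and 0.52 and those of endoplasmic reticulum folding at 0.46 and 0.36.

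Acetyl-CoA carboxylases, which commit carbon to fatty acids, were higher. Acaca was at 281 and 56.0 counts (1.63) and ACACB at 390.5 and 86.3 (1.48), moderate hypoxia first. Both are long, and length-adjusted they stood at 0.96 and 0.81. Over 35 cholesterol and fatty acid synthesis genes, 4 were higher by at least 2-fold and 0 lower, below the 15.7% of all symbols, and the median was 0.07 (-0.03 length-adjusted). Of 45 lysosomal and proton pump genes summed by symbol, 0 were at least 2-fold higher and 1 lower, both below the shares of all symbols. Their median was -0.09, and 0.61 on library totals. The lower gene was npc2, a cholesterol carrier of the lysosome, at 1896 counts in moderate hypoxia and 3381 in normoxia (-1.53). Over the 86 single rows of the list, 12 were at least 2-fold higher and 6 lower, both below the shares of all rows.

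Among neutrophil markers, the 2 genes at least 2-fold higher were proteases. mmp9 had 37901 counts in moderate hypoxia, 6248 in severe hypoxia and 5333 in normoxia (moderate 4.38-fold higher, interval 4.31 to 4.46), nearly all from 1 of its 2 rows. The collagenase mmp13 had 22250.3 counts in moderate hypoxia, 5756 in severe hypoxia and 5512 in normoxia (1.32). Other abundant neutrophil markers lay below 0 on scaled counts: myeloperoxidase MPO was at 89768 counts in moderate hypoxia and 95226 in normoxia (-0.78), the oxidase subunit ncf1 at 4651 and 3093 (-0.11), and the growth factor receptor csf3r at 14129.7 and 9228 (-0.08), and on library totals they stood at -0.09, 0.58 and 0.61. The 9 markers had 2 higher by at least 2-fold, above the 15.7% of all symbols, 0 lower, and a median of 0.04. Their summed counts, before scaling, were 179834 in moderate hypoxia and 124661 in normoxia, a log2 ratio of -0.17 after scaling.

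Macrophage markers had 1 of 11 at least 2-fold higher and 1 lower, both below the shares of all symbols (median -0.49, 0.20 on library totals). The mannose receptor MRC1 had 16549 counts in moderate hypoxia and 4787 in normoxia (1.09), and the lineage factor spi1a had 828 and 1186 (-1.22). T and NK cell markers had 3 of 19 higher, close to the 15.7% of all symbols, and 1 lower (median 0.51, 0.45 length-adjusted). Perforin, prf1, was at 1190 counts in moderate hypoxia and 322 in normoxia over 7 rows (1.19), and the interleukin-2 receptor chain il2rb at 256 and 76.3 (1.05). The receptor chain Cd247 was at 1113 and 1287 counts (-0.91, -0.21 on library totals). B cell markers had a median of 0.01 with 0 of 14 higher and 1 lower, both below the shares of all symbols. The lower gene was the kinase btk, at 2104 counts in moderate hypoxia and 2810 in normoxia (-1.12). Of 10 thrombocyte markers, 2 were at least 2-fold higher and 3 lower, both above the shares of all symbols. Their median was -0.50, and 0.19 on library totals. The platelet receptor genes gp9, at 176 and 429.7 counts (-1.98), and gp1bb, at 571 and 1264 (-1.84), were lower. The thrombospondin thbs1b was among the higher markers (2.53), and the integrin itga2b lay at 0.46.

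**Figure D5:**
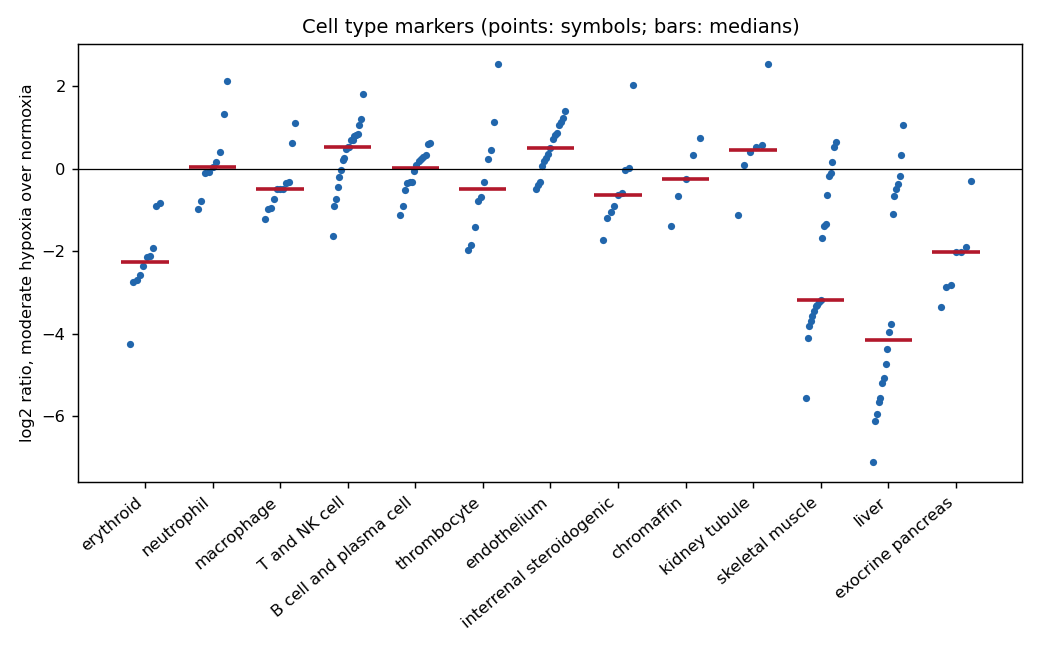
Each point is the log2 ratio of moderate hypoxia over normoxia (y axis) of 1 marker gene summed by symbol, arranged by cell type (x axis), and bars are medians. Erythroid, skeletal muscle, liver and exocrine pancreas markers have medians below -2, and the other cell types lie between -0.64 and 0.51.

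The list of NF-kB and inflammation genes holds 8 Toll-like receptors, which sense microbial molecules. Of these, 4 were at least 2-fold higher, above the 15.7% of all symbols. tlr1 had 254 counts in moderate hypoxia and 35.4 in normoxia (2.15), tlr2 had 705 and 133 (1.71), tlr9 had 104 and 15.3 (2.07), and the fish receptor tlr22 had 145 and 29.3 (1.60). In severe hypoxia their log2 ratios were 1.42, 1.60, 1.60 and 1.09. The others, Tlr8, tlr3, tlr7 and Tlr13, lay between 0.02 and 0.45. The whole list of 31 symbols had 8 at least 2-fold higher, above the share of all symbols, and 1 lower, below the share for lower. Its median was only 0.14 (-0.05 length-adjusted). The inhibitor NFKBIA was at 3432 counts in moderate hypoxia and 3763 in normoxia (-0.83), and the chemokine ccl4 at 170.3 and 229.7 (-1.13). Immediate early genes had 7 of 40 at least 2-fold lower, above the share of all symbols, and 1 higher, below the share for higher (median -0.24, 0.45 on library totals). Dusp4, a phosphatase of MAP kinases, was at 83.7 and 254 counts (-2.30), gadd45ab, a growth arrest gene, at 165 and 357 (-1.81), and fos at 172 and 77.7 (0.45), moderate hypoxia first in each.

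Genes of the actin cytoskeleton and leukocyte movement were mixed: of 50, 6 were higher by at least 2-fold and 5 lower, both below the shares of all symbols (median -0.19, 0.50 on library totals). Dock8, a guanine nucleotide exchange factor needed for leukocyte migration, had 4427 counts in moderate hypoxia and 325 in normoxia (8.39-fold higher, interval 7.86 to 8.96). The adhesion receptor ITGA4 had 3862 and 385 counts (2.63), and the GTPase rhoaa 476 and 82.0 (1.84). Short actin regulators were lower: profilin pfn1 was at 30784 counts in moderate hypoxia and 53902 in normoxia (-1.51, -0.12 length-adjusted), and the Arp2/3 subunit arpc3 at 2869 and 4864 (-1.46, -0.41 length-adjusted).

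Extracellular matrix genes had 14 of 49 at least 2-fold higher, above the share of all symbols, and 1 lower, below the share for lower. Their median was 0.47 (0.14 length-adjusted, with a median length of 5690.5 bases). Fibronectin, fn1a, had 533 counts in moderate hypoxia and 84.1 in normoxia (1.97), and the thrombospondin thbs1b 350.3 and 37.3 (2.53). The basement membrane collagen COL4A1 had 566 and 162 counts (1.11). The 1 lower gene was COL10A1, the collagen of hypertrophic cartilage in mammals, at 1.67 counts in moderate hypoxia and 146 in normoxia (-7.15, interval -8.78 to -5.91); in severe hypoxia it stood at 8.67. Endothelial markers had 4 of 15 higher, above the share of all symbols, and 0 lower (median 0.51, 0.16 length-adjusted). The scavenger receptor stab2 had 6894 and 1932 counts (1.14), and the lymphatic growth factor receptor flt4 352 and 92.7 (1.23), moderate hypoxia first. Of 6 kidney tubule markers (median 0.46), the endocytic receptor Lrp2 had 128 counts in moderate hypoxia and 13.7 in normoxia (2.53), and the water channel AQP1 1952 and 2637 (-1.13).

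Marker lists of liver and skeletal muscle had the lowest medians. For these and exocrine pancreas, the 2-fold lower share lies above the 11.1% of all symbols and the higher share below the 15.7%. Skeletal muscle markers had 13 of 19 at least 2-fold lower and 0 higher, a median of -3.18, and summed counts of 5159 in moderate hypoxia and 12786 in normoxia. The muscle calcium buffer pvalb1 was at 69.7 counts in moderate hypoxia and 2020 in normoxia (47.0-fold lower), and the troponin TNNI2 at 47.3 and 505 over 16 rows (-4.11). Liver markers had 12 of 18 lower and 1 higher, with a median of -4.16; hpxa, a gene of the haem carrier haemopexin, was at 0 in moderate hypoxia and 29.0 counts in normoxia. Albumin, alb1, was at 27.0 counts in moderate hypoxia, 508 in severe hypoxia and 562 in normoxia, and the apolipoprotein apoa2 at 5.33, 294 and 229 in the same order. The summed counts of the list were 3982 in moderate hypoxia and 4489 in normoxia, of which AMBP alone gave 2523 and 2200.3. Exocrine pancreas markers had 6 of 7 lower and 0 higher (median -2.02), with the trypsin Prss1 at 65.0 counts in moderate hypoxia and 283 in normoxia. Whether these transcripts came from tissue beside the head kidney was not tested. In severe hypoxia the medians were -0.80 for muscle, 0.07 for liver and -1.10 for pancreas.

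The largest ratios were sought among symbols that reached 300 counts on the higher side and 10 on the lower. The ubiquitin-activating enzyme UBA1 had 2893 counts in moderate hypoxia and 125 in normoxia (14.3-fold higher, interval 12.9 to 15.9, rows at 3.63 and 3.99), and the signal transducer SMAD3 465 and 20.0 (14.3-fold over its 3 rows). The corepressor rerea (15.3-fold), ATRN, which encodes attractin (14.8-fold), the ferroxidase-like HEPHL1 (14.7-fold), the galactosyltransferase b4galt5 (14.0-fold) and Fam120c (14.0-fold) lay in the same range. These 7 genes were also higher in severe hypoxia, at log2 ratios of 1.63 to 2.80. Those ratios are over the same normoxia counts by which the genes were picked, so they are not a separate check. After pvalb1 and alb1, the lower end held muscle genes: TNNI2, TNNT3, myom1b, TNNC2, PGAM2 and CASQ1, between 17.3-fold and 11.0-fold lower.

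Copies of a gene often differed in whether they passed 2-fold, and few were called in opposite directions. Of the rows at least 2-fold higher, 3888 belonged to symbols with several rows, and for 1802 of them (46.3%) the sum over the symbol was also at least 2-fold higher. The sum stayed under 2-fold on the same side for 1584 and lay at or below 0 for 502. Of 2024 such rows at least 2-fold lower, the sum was called the same way for 1161 (57.4%). Among 4726 symbols with exactly 2 rows above the minimum, both rows were higher in 379, both lower in 227, and the rows were opposite in 54. Only 1 of the rows passed 2-fold in 1499, and neither did in 2567.

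Rows at 0 in 1 group were few. In normoxia 114 rows were at 0, of which 10 had 100 or more counts in moderate hypoxia, and in moderate hypoxia 36 rows were at 0, of which 4 had 100 or more in normoxia. The largest was a locus with no symbol, of 1421 bases, at 0 in moderate hypoxia, 0 in severe hypoxia and 21604 counts in normoxia. It was 35039-fold lower with moderate hypoxia set to 3 counts over the group. EIF3B, an initiation factor subunit with 1 row, had 378 counts in moderate hypoxia, 0 in severe hypoxia and 0 in normoxia. It was 233-fold higher with normoxia set to 3 counts over the group, and its counting interval starts at 189-fold. The symbol eif3ba, for the same subunit, was at 2234 counts in moderate hypoxia and 753 in normoxia (0.87). A timm10 row had 210.2 counts in moderate hypoxia and 0 in normoxia, while both rows of that symbol together lay at a log2 ratio of 0.65. For a fth1-a row, at 0 in moderate hypoxia and 1511 counts in normoxia, severe hypoxia had 192.

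The authors' table labels some rows by KEGG pathway, a public classification of gene functions. In all 9713 rows carried such a label, and 72 classes by the first-listed pathway had 30 or more rows. Their medians ran from -1.42 to 0.47, and from -0.44 to 0.49 after length adjustment, with 67 of the 72 within 0.3 of 0. The ribosome class was lowest, with 183 of 237 rows at least 2-fold lower (median -1.42, -0.36 length-adjusted). Oxidative phosphorylation followed, with 94 of 195 rows lower (median -0.98, -0.10 length-adjusted), and both shares lie above the 14.0% of all rows. The cell cycle class had 18 of 104 rows at least 2-fold higher and 1 lower (median 0.25, 0.22 length-adjusted), and nucleocytoplasmic transport 35 of 158 higher and 6 lower (median 0.36, 0.25 length-adjusted), both near the 20.0% of all rows for higher and below the 14.0% for lower. The spliceosome class had 20 of 224 rows higher and 21 lower (median -0.08, 0.19 length-adjusted), and ribosome biogenesis 6 of 89 higher and 8 lower (median -0.03, 0.19 length-adjusted), all below the shares of all rows. Mitophagy was the lowest of the 72 classes after length adjustment, at -0.44. Of its 45 rows, 9 were lower, above the 14.0% of all rows, and 5 higher, below the 20.0%.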

How the data were processed

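Total RNA of head kidney was sequenced in 9 libraries, 3 in each of 3 groups. The deposited table holds, per the file headers, 1 FPKM value and 1 count per gene and group, the count being the mean of 3 libraries. The authors' values are estimated (expected) counts: after multiplication by 3, 69.6% of moderate hypoxia values and 73.9% of normoxia values were whole within 0.002. Per the submitters' processing notes, Bowtie2 2.2.8 and HISAT2 were used, for steps that are not stated. No source used here gives the counter, the strand setting or the genome build. The table was printed in fields of 8 characters, so longer symbols are cut, and 1774 rows with an ambiguous cut symbol stayed out of the sums by symbol; RefSeq names of assembly USDA_OmykA_1.1 resolved the others.

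Counts were scaled by TMM (trimming 30% of ratios and 5% of abundances), and a gene was called at a 2-fold difference. A design with 1 value per group allows no test. Rows at 0 were set to 3 counts over the group of 3 libraries. Gene length came from the ratio of count to FPKM, and its trend was removed with medians of 50 bins. Counting intervals are exact (Clopper-Pearson, 95%); without molecular identifiers in the reads, these reflect error of counting and nothing else. The steps were tested on simulated counts without spread between fish, in which most rows were unchanged. That setting differs from these data, so the test does not show how well the scaling holds here. The comparison, the 34 pathway lists and the 13 marker lists were chosen with earlier results of these data known. Named genes are the 8 largest ratios in each direction (at least 300 counts in the higher and 10 in the lower group), up to 4 genes per pathway list with the largest ratios and at least 100 counts, the 10 largest share changes in each direction, and hif1a, egln3, vegfa, epo, hbb, star, fkbp5 and mmp9. Marker genes and further list members, such as rpl5a and MPO, were named after their values were seen. Some genes that the rule names are not reported here. Alternatives were library totals, size factors, FPKM with pseudocounts of 1 and 0.1, other minimum counts and folds, and length adjustment. Analyses used Python 3.11.15, numpy 2.4.6, pandas 2.3.3, scipy 1.17.1 and matplotlib 3.10.9.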

Additional observations from a re-analysis of the deposited data

How the results depend on the processing

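No paired analysis was possible because the table gives 1 value per group; for the same reason no library could be left out in turn. On library totals 10834 rows were at least 2-fold higher and 1307 lower, and 4833 symbols higher and 391 lower. Deposited FPKM with a pseudocount of 1 gave 628 rows and 193 symbols lower; with a pseudocount of 0.1 it gave 9709 rows higher and 1167 lower, and 4460 symbols higher and 344 lower. A 1.5-fold threshold gave 7375 rows lower, and 3478 symbols higher and 3121 lower. A 4-fold threshold gave 2548 rows higher and 815 lower, and 766 symbols higher and 233 lower. A minimum of 1 count gave 5982 of 35980 rows lower, against 3971 of 28415 at the minimum of 10. A minimum of 50 counts gave 3666 of 21761 rows higher, against 5682 of 28415. With the length trend removed 857 symbols were lower. DUT then stood at 0.0059, against -1.05 with the trend kept, and MRPL53 at 0.035, against -1.35; the cause was not tested. Of 145 named genes past 2-fold, 124 stayed past it on library totals, 145 with size factors, 119 and 124 with FPKM at pseudocounts of 1 and 0.1, and 96 with the length trend removed; 143 kept their direction in that last setting and all 145 in the others. Of the 47 list medians, 25 lay above 0; 32 kept their sign on library totals, 39 with the length trend removed and 43 over rows in place of symbols. The spread between fish is unknown, which depth does not remedy, and genes near 10 counts are the least precise.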

Other observations

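Loci that the authors assembled numbered 1793 above the minimum. Of these, 284 were at least 2-fold higher in moderate hypoxia, below the 20.0% of all rows, and 746 lower, above the 14.0%. Their median log2 ratio was -0.76 (-0.27 length-adjusted). Rows labelled with a transcription factor family numbered 2737, of which 560 were at least 2-fold higher, close to the 20.0% of all rows, and 243 lower, below the 14.0% of all rows (median 0.10). Families chosen after their values were seen were the ARID family of DNA-binding chromatin proteins, with 16 of 40 rows higher and 0 lower (median 0.90, 0.35 length-adjusted), the Pou family, with 6 of 10 rows higher and 0 lower (median 1.22, 0.94 length-adjusted), and the interferon regulatory factors, with 2 of 22 rows higher and 7 lower (median -0.59, -0.49 length-adjusted).

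Further rows stood at 0 in 1 group. A ZP2 row, an egg coat protein gene, had 509 counts in moderate hypoxia, 0 in severe hypoxia and 0 in normoxia. The immunoglobulin segment IGHV3-48 had 268 counts in moderate hypoxia, 14.0 in severe hypoxia and 0 in normoxia. A casp6 row was at 0 counts in moderate hypoxia, 23.3 in severe hypoxia and 153 in normoxia, while the 3 rows of that caspase symbol together lay at a log2 ratio of -0.10.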
